A study of Rattus norvegicus with 3 samples.

Results

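Neurofilaments, tubulin and the proteins that bind microtubules form the skeleton of the axon, and 8 genes of this skeleton were followed in the rat vestibular nuclei after loss of the inner ear on 1 side. The genes were Nefh, Nefl, Nefm, Ina and Prph, which encode neuronal intermediate filament proteins, Tubb3, which encodes a tubulin of neurons, and Map2 and Mapt, which encode proteins that bind microtubules. They were chosen by name, with the lower day 7 values of the 3 neurofilament genes already known from these arrays, so the values below describe the genes and do not test the choice. All 8 genes had at least 1 probe, and their 10 probes were taken from 8899 named genes and 10768 named probes on an array of 41012 probes.

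The tissue came from male Sprague-Dawley rats, adults weighing 200 to 250 g. The groups were the nuclei of the operated side 1 day after left labyrinthectomy, the nuclei of the operated side 7 days after it, and a control that carries the label sham operation. Labyrinthectomy is the surgical removal of the balance organ. The protocol text speaks of normal rats as controls, and which side was taken from them is not stated in the labels. The word sham stands for this control in what follows. Each group had 1 array with tissue of 3 rats, apparently as 1 pool, so the spread between animals is unknown and differences are given without a test.

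Neurofilaments are the intermediate filaments of neurons. The light chain (Nefl) is the core on which the medium (Nefm) and heavy (Nefh) chains assemble, and both longer chains carry tails that project from the filament and can be heavily phosphorylated. Alpha-internexin (Ina) joins the same filaments in the central nervous system, and peripherin (Prph) is found mostly in neurons that send axons to the periphery, motor neurons of the brainstem among them. Neurofilament content goes with axon calibre, and the lateral vestibular nucleus holds large neurons with thick axons to the spinal cord. Microtubules run beside these filaments, with tau (Mapt) mostly in axons and Map2 mostly in dendrites and cell bodies.

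All 10 probes were well above background on all 3 arrays, none was saturated and none carried an outlier flag. The raw signal of the 10 probes lay between 1.59% and 65.4% of the scanner's saturation value, the highest being Nefm in sham. Levels are given as intensity, the scanner software's background-subtracted signal, and differences as log2 of the intensity after each array was divided by its own 75th percentile, which was 5692 in sham, 5242 on day 1 and 5676 on day 7. Slc17a6, the glutamate transporter of brainstem excitatory neurons, was at 8.05 (sham), 8.19 (day 1) and 9.13 (day 7) times the array's 75th percentile. Slc17a7, the other glutamate neuron marker, was well above background in sham but not on day 1 or day 7. All 4 markers of inhibitory neurons were well above background on each array. Of the hindbrain position genes only Hoxa2 had a named probe. Its intensity was 8478 in sham, 7851 on day 1 and 28.5 on day 7, where it was not well above background, so it was at least 69.5-fold lower on day 7 than in sham; the bound sets the sham value against the lowest signal that counted as well above background on day 7. Zic1, a cerebellar and hindbrain marker, had 809 in sham, 1666 on day 1 and 97.3 on day 7, again not well above background, at least 6.64-fold lower on day 7 than in sham. Calb1, another cerebellar marker, went the other way on day 7. Its log2 difference from sham was 0.31 on day 1 and 0.75 on day 7, with 0.29 and -0.07 by its next probe. Neither Hoxa2 nor Zic1 was well above background on the day 7 array, and the part of tissue position in the day 7 values below was not tested.

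The 3 classical neurofilament chains were the members with at least 2-fold lower signal on day 7 than in sham. Nefh had an intensity of 23504 in sham, 13533 on day 1 and 4766 on day 7. It stepped down at each time, and its day 7 signal was 4.92-fold lower than in sham, or 20.3% of the sham level (log2 difference -2.30). Nefl had an intensity of 18471 in sham, 14064 on day 1 and 6053 on day 7. Its day 7 signal was 3.04-fold lower than in sham, or 32.9% of it (log2 difference -1.61). Nefm had an intensity of 46382 in sham, 36718 on day 1 and 20534 on day 7. Its day 7 signal was 2.25-fold lower than in sham, or 44.4% of it (log2 difference -1.17). In bulk tissue such as this, fewer cells of a type and less RNA per cell cannot be told apart.

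Most of each difference lay between day 1 and day 7. For Nefh the log2 difference was -1.62 between day 7 and day 1 and -0.68 between day 1 and sham. For Nefl it was -1.33 between day 7 and day 1 and -0.27 between day 1 and sham. For Nefm it was -0.95 between day 7 and day 1, just short of 2-fold, and -0.22 between day 1 and sham. The heavy chain was thus the lowest of the 3 relative to sham at both times, and the medium chain was the closest to sham at both times.

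The spacing of the chains was small on day 1 and wider on day 7. The log2 difference of Nefh lay 0.40 below that of Nefl on day 1 (-0.40) and 0.69 below it on day 7 (-0.69). That of Nefl lay below that of Nefm by 0.06 on day 1 (-0.06) and by 0.43 on day 7 (-0.43). A pair of yardsticks of measurement error can be set beside these values. The scanner software's own error of a spot gave 0.204 to 0.212 log2 for a difference between 2 arrays, depending on the probe. Among 1121 genes with 2 measured probes, the 2 probes disagreed by a median of 0.41 log2 at day 7 against sham and by 1.41 at the 90th percentile; among the 385 genes whose probes were both bright, these values were 0.25 and 1.01. Each neurofilament chain rests on 1 named probe with 1 spot. No second probe was found by RefSeq accession, and unnamed probes were not searched. The order of Nefl and Nefm on day 1 was within both yardsticks. The day 1 differences of Nefl and Nefm from sham (-0.27 and -0.22) were smaller than the median disagreement of probe pairs on day 1 (0.34). The day 7 differences of all 3 chains from sham were larger than the median disagreement of probe pairs. Those of Nefh and Nefl were also larger than the 90th percentile of all pairs, and that of Nefm was larger than the 90th percentile of the bright pairs but not of all pairs. The day 7 gaps between neighbouring chains (-0.69 and -0.43) were above the median disagreement of all pairs and below the 90th percentile of bright pairs. From day 1 to day 7 these gaps changed by -0.29 and -0.38, where probe pairs disagreed by a median of 0.37. The order of neighbouring chains and their wider spacing are therefore a description.

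**Figure D1:**
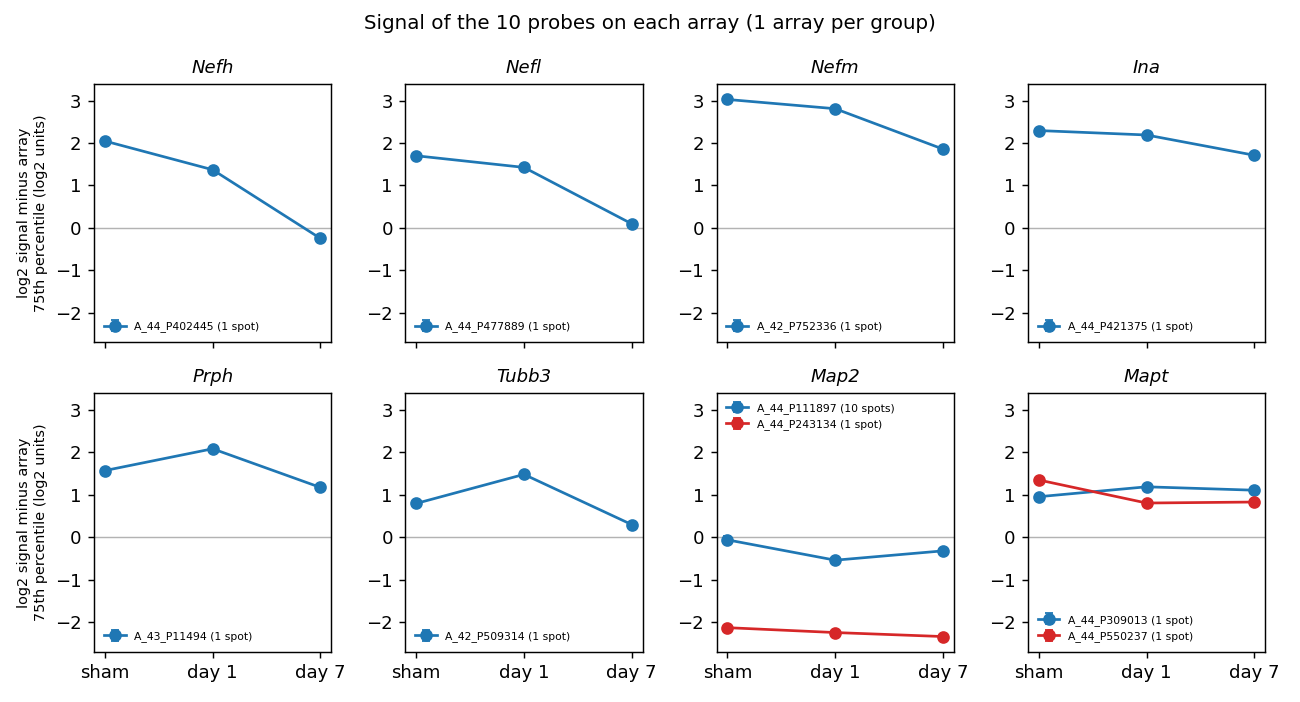
Signal of each of the 10 probes as log2 intensity minus the array's 75th percentile (y axis, log2 units) on the sham, day 1 and day 7 arrays (x axis), 1 panel per gene and 1 line per probe, with 1 array per group; bars on the Map2 probe with 10 spots are the SD over its spots and are smaller than the symbols. The lines of Nefh, Nefl, Nefm and Ina go down at each step, those of Prph and Tubb3 peak on day 1, and those of the Map2 and Mapt probes vary by under 1 log2 unit. The day 1 steps of Nefl, Nefm and Ina are within the median disagreement of probe pairs on day 1 (0.34).

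Alpha-internexin followed the same order with smaller differences. Ina had an intensity of 27893 in sham, 23896 on day 1 and 18572 on day 7. Its day 7 signal was 66.8% of the sham level (log2 difference -0.58), and its day 1 signal was 1.07-fold lower (-0.10). That day 1 difference was within the scanner error (0.204) and within the median disagreement of probe pairs on day 1 (0.34), so its direction is uncertain. The order Nefh, Nefl, Nefm, Ina, from the lowest difference upward, held in all 3 comparisons, which share arrays and are not independent. Their places among all measured genes on day 7 relative to sham are given as a description. Of 6321 genes, 64 (1.01%) had a lower difference than Nefh, 133 (2.10%) than Nefl, 272 (4.30%) than Nefm and 833 (13.2%) than Ina.

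Peripherin and the neuronal tubulin took another course: both had a higher signal on day 1 than in sham and a lower one on day 7. Prph had an intensity of 16932 in sham, 22272 on day 1 and 12812 on day 7. Its log2 difference was 0.51 on day 1 against sham (1.43-fold higher) and -0.40 on day 7 against sham (1.32-fold lower). Tubb3 had an intensity of 9889 in sham, 14648 on day 1 and 6981 on day 7. Its log2 difference was 0.69 on day 1 against sham (1.61-fold higher) and -0.50 on day 7 against sham (1.41-fold lower). None of these 4 differences reached 2-fold. On day 1 both genes differed from sham by more than the median disagreement of probe pairs (0.34). On day 7 Prph was within that median (0.41) and Tubb3 was above it. All 4 differences were smaller than the 90th percentile of bright pairs, 0.86 on day 1 and 1.01 on day 7. The largest step of both genes was between the operated groups: day 7 was 2.27-fold lower than day 1 for Tubb3 (-1.18) and 1.88-fold lower for Prph (-0.91). Both genes rest on 1 named probe with 1 spot.

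**Figure D2:**
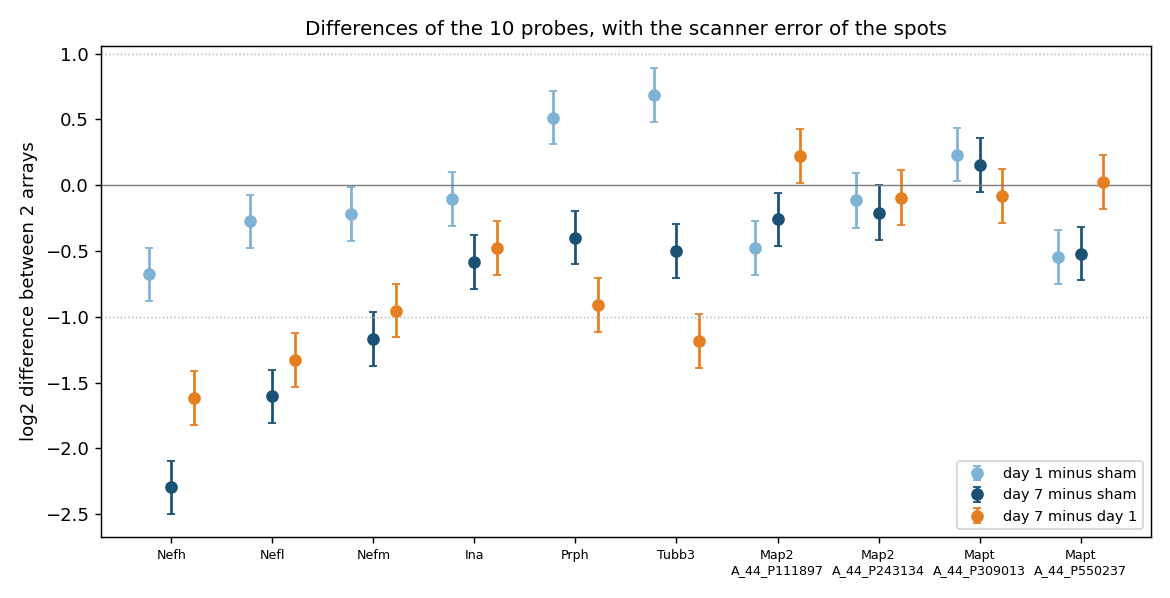
The log2 difference between 2 arrays (y axis) of the 10 probes (x axis) for day 1 minus sham, day 7 minus sham and day 7 minus day 1; bars are the scanner software's error of the spots, about 0.204 log2, not a spread between animals, and dotted lines mark 2-fold. Nefh, Nefl and Nefm lie past the lower line for day 7 minus sham, and Prph and Tubb3 lie above 0 for day 1 minus sham and below 0 for day 7 minus sham.

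The promoters of Ina, Prph and Tubb3 are printed because their readings include both courses, a lower reading at each time and a peak on day 1. The day 1 step of Ina was within the scanner error. They are the 250 bases before the transcription start in RefSeq's annotation of the GRCr8 rat assembly, all on the plus strand. Ina lies at chr1:255837879-255838128, Prph at chr7:132097039-132097288 and Tubb3 at chr19:68365437-68365686. Capitals mark matches on either strand to the TATA box, searched as TATAAA, to the GC box, searched as GGGCGG, and to the CCAAT box, searched by those 5 letters.
Ina: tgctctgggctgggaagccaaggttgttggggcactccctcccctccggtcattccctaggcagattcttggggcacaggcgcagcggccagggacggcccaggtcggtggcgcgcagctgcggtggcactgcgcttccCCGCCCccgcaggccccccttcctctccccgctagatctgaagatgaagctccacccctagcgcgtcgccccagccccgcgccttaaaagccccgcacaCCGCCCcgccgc
Prph: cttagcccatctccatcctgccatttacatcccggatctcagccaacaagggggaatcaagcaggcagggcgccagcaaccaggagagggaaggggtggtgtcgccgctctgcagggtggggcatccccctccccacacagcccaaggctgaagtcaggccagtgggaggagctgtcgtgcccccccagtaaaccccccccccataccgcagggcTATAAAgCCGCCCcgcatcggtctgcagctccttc
Tubb3: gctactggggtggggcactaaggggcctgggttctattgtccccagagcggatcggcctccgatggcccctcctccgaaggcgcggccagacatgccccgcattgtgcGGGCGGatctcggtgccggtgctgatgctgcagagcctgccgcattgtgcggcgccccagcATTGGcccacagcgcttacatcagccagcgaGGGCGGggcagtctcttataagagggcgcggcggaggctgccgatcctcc

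Of the 8 genes, Ina, Prph, Tubb3 and Map2 matched the promoter table by symbol. The Prph window holds a TATA box, which starts 35 bases before the start and is followed by a GC box on the opposite strand at 28 bases. The Ina window has no TATAAA and holds 2 GC boxes, at 111 and 12 bases. The Tubb3 window has no TATAAA either and holds GC boxes at 142 and 50 bases and a CCAAT box at 81 bases. Of 33469 rat promoters of the same length, 12.9% hold a TATA box by these letters, 30.5% a GC box and 34% a CCAAT box. The binding motif of the Egr factors, searched as GCGNGGGCG, is held by 4.29% of them; it overlaps the GC box in Ina at 110 bases and in Tubb3 at 54 bases, and it is not among the letters of the Prph and Map2 windows. An E-box, CANNTG, is held by 65.5% of promoters and lies in Ina at 135 bases and in Map2 at 166 bases. The core of the cAMP response element, TGACG, is held by 18.2% and is in none of these 4 windows. The share of G and C was 70.8% in Ina, 64.4% in Prph, 68% in Tubb3 and 32% in Map2, where the median promoter has 51.2%. A match in letters is a description and says nothing of binding in this tissue.

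The genes of the microtubule-binding proteins were nearer to sham. Map2, the dendritic member, has a probe printed on 10 spots, which averaged an intensity of 5452 in sham, 3601 on day 1 and 4541 on day 7. Its 10 spots ranged from 3433 to 3738 on day 1, below the range from 5015 to 6127 in sham, and from 4261 to 4817 on day 7, which overlaps neither. Its log2 difference was -0.48 ± 0.03 on day 1 against sham, -0.26 ± 0.03 on day 7 against sham and 0.22 ± 0.02 on day 7 against day 1. These errors are standard errors over the 10 spots of each array and measure the printing and scanning of 1 hybridisation. The second Map2 probe, A_44_P243134, had an intensity of 1297 in sham, 1103 on day 1 and 1118 on day 7, with log2 differences of -0.12 on day 1 and -0.21 on day 7 against sham. Both probes read lower than sham at both times, and they differ on whether day 7 lies above day 1 (0.22 against -0.09).

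The probes of Mapt, the tau gene, did not read the same way. Probe A_44_P309013 had an intensity of 11044 in sham, 11957 on day 1 and 12246 on day 7, which gave log2 differences of 0.23 on day 1 and 0.15 on day 7 against sham. Probe A_44_P550237 had 14518 in sham, 9171 on day 1 and 10094 on day 7, which gave -0.54 and -0.52 against sham at the same times. No direction for tau RNA against sham is therefore given here. Between the operated groups both probes read nearly the same, with day 7 minus day 1 at -0.08 and 0.02. Which transcripts each probe detects was not examined here.

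Counted over the 8 genes, by the brighter probe where a gene has 2, no member was 2-fold higher or lower on day 1 than in sham, with a median log2 difference of -0.16; of the 6351 genes measured there, 8.22% lay 2-fold or more above sham and 4.41% as far below it, and their median was 0.00. On day 7 against sham, 0 members passed 2-fold upward and 3 downward, with a median of -0.54; of 6321 genes, 11.1% passed upward and 5.76% downward, and their median was 0.05. The members were chosen with this comparison known, so nothing is read from that count. On day 7 against day 1, 0 members passed 2-fold upward and 3 downward (Nefh, Nefl and Tubb3), with a median of -0.93; of 6193 genes, 6.52% passed upward and 5.34% downward, and their median was 0.04. All 8 members are bright genes, meaning brighter than the median probe that was well above background. Among bright genes, 5.15% passed 2-fold upward and 3.04% downward on day 1 against sham (3030 genes), 5.57% upward and 5.24% downward on day 7 against sham (3090 genes), and 4.18% upward and 4.9% downward on day 7 against day 1 (3059 genes).

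The 100 spots nearest to each member's probe had a median log2 difference between -0.17 and 0.17 at day 7 against sham and between -0.04 and 0.15 at day 1 against sham, the 0.15 being that around the Tubb3 probe. All 3 arrays lay on 1 slide, at different positions, so position on the slide and group cannot be told apart.

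**Figure D3:**
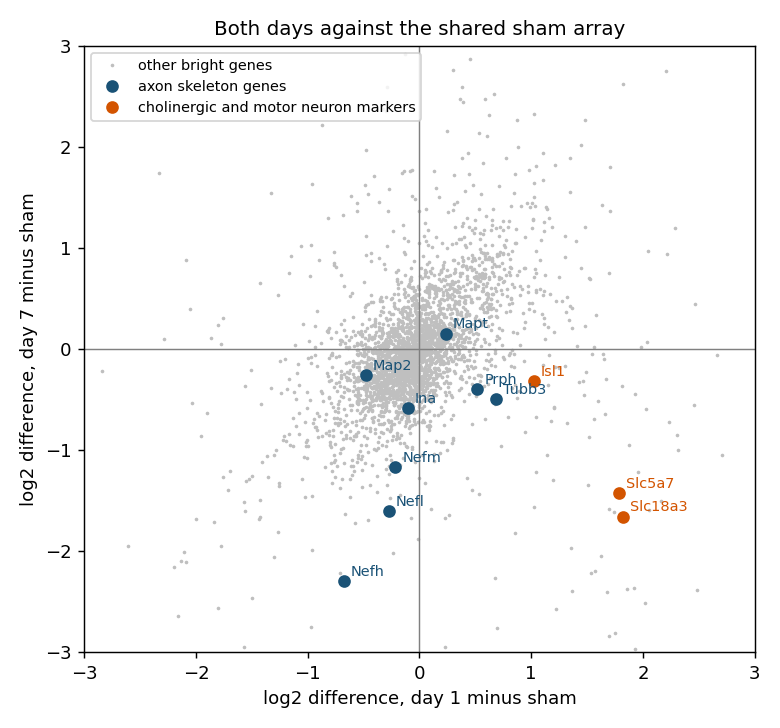
Log2 difference of each bright gene on day 1 minus sham (x axis) and on day 7 minus sham (y axis), both against the same sham array, so the axes are not independent; genes beyond the axes are not drawn. Nefh (-0.68, -2.30), Nefl (-0.27, -1.61) and Nefm (-0.22, -1.17) lie low and left of 0, while Prph (0.51, -0.40) and Tubb3 (0.69, -0.50) lie right of 0 and below it, and the cholinergic genes Slc5a7 (1.78, -1.43) and Slc18a3 (1.82, -1.66) lie farther out on the same sides of 0.

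The other tubulin genes were mostly near sham. Of 18 tubulin genes besides Tubb3, 9 were measured, and 7 of them had a lower signal on day 7 than in sham, with a median log2 difference of -0.21 and none 2-fold lower. Among all 6321 measured genes, 2963 were lower on day 7, and 5.76% were at least 2-fold lower. Tubb6 and Tuba1c were at -0.66 each on day 7, with -0.09 and -0.37 by their next probes. Tubb2b, a tubulin of developing neurons, was at -0.76 on day 1 against sham, with -0.41 by its next probe. Tuba8 was the measured tubulin past 2-fold, at 1.82 on day 1 and 2.62 on day 7 against sham, but its next brightest probe read -0.13 and -0.51, so its direction is uncertain. On day 1 the 9 genes had a median of 0.14, with 6 above 0, where 3185 of all 6351 measured genes were above 0. Cross-hybridisation between near-identical tubulin transcripts was not examined here.

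Of 29 microtubule-associated genes besides Map2 and Mapt, 12 were measured, and none differed 2-fold from sham on either day. Of all measured genes, 8.22% passed upward and 4.41% downward on day 1, and 11.1% and 5.76% on day 7. The median of the 12 was 0.04 on day 1 and -0.16 on day 7 against sham. Dpysl3, a protein of growing axons, was at 0.70 on day 1 against sham and at -0.92 on day 7 against day 1, a course like that of Tubb3 in sign. Mapre1, which binds growing microtubule ends, was at -0.49 on day 7, Stmn1, which destabilises microtubules, at -0.35, and Map1a, which binds microtubules along their length, at -0.31. On day 1, Clip2 was at -0.27.

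Of 18 genes of tubulin folding and modification, 9 were measured on day 1, with a median of -0.07, and 7 on day 7, with a median of -0.30. Ttl, the tubulin tyrosine ligase, was at 1.24 on day 1 against sham and not well above background on day 7. Ttll1, a tubulin polyglutamylase subunit, was at 0.99 on day 7 against sham, with 2.33 by its other probe, and at 1.06 on day 7 against day 1. Tbce, a tubulin folding cofactor, was at -0.59 on day 7 against sham, with -2.28 by its other probe. Atat1, the tubulin acetyltransferase, was at -0.53 on day 7 and -0.72 on day 1 against sham, and Tbca, another folding cofactor, at -0.54 on day 1.

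Most genes of the motors that carry cargo along axons read lower than sham. On day 7, 14 of 15 measured motor genes were below 0, with a median of -0.39 and 1 of them 2-fold lower; on day 1, 15 of 16 were below 0, with a median of -0.30 and none 2-fold lower. Of all measured genes, 2963 of 6321 were below 0 on day 7 and 3166 of 6351 on day 1, with medians of 0.05 and 0.00. At least 2-fold lower were 5.76% of them on day 7 and 4.41% on day 1. Of bright genes, 1750 of 3090 were below 0 on day 7 and 1767 of 3030 on day 1, with a median of -0.06 at each time. Trak2, an adaptor that links mitochondria to kinesin, was at -1.45 on day 7 and -0.96 on day 1, with -0.06 and -0.89 by its next probe. Kif1b, a kinesin of vesicle and mitochondrial transport, was at -0.70 on day 7 and -0.84 on day 1; its other probe read -0.89 and 0.87. Kif5a, the kinesin with a known part in neurofilament transport, was at 0.31 on day 7 and -0.68 on day 1. Dynll2, a dynein light chain, was at -0.58 on day 7, with -0.99 by its next probe. Between day 7 and day 1 the 15 measured motor genes had a median of 0.03, against -0.95 for the 5 neurofilament and peripherin genes.

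Among kinases and linkers that act on neurofilaments and tau, Cdk5r1, which encodes the p35 activator of the kinase Cdk5, had an intensity of 393 in sham, 232 on day 1 and 1627 on day 7. Its log2 difference was -0.64 on day 1 against sham, 2.05 on day 7 against sham and 2.70 on day 7 against day 1, opposite in sign to the neurofilament chains in the comparisons with day 7. Mapk10 and Mapk3, kinases of the JNK and ERK families, were at -0.95 and -0.85 on day 7 against sham. Gsk3a, a tau kinase, was at 1.22 on day 1 against sham. Mark1, another tau kinase, was at 0.99 on day 1 against sham, with 1.13 by its other probe, and at -1.05 on day 7 against day 1. Of the 15 measured genes of this list, 1 was at least 2-fold higher and 0 lower at each day against sham. Of all measured genes, 8.22% passed upward and 4.41% downward on day 1, and 11.1% and 5.76% on day 7. The counts of this list and of the next are therefore a description. In the membrane skeleton, 8 of 12 spectrin, ankyrin and adducin genes were measured; Add2, an adducin, was at 1.70 on day 1 and 1.64 on day 7, and the other 7 stayed under 2-fold, with Epb41l3 at -0.62 on day 7.

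Intermediate filaments of other cells lay on both sides of sham. Vim, the vimentin of glia and vessels, was at 1.57 on day 7 against sham, with an intensity of 2080 on day 7 and 705 in sham. Krt8, a keratin of simple epithelia, was at 5.85, with 6647 on day 7 and 115 in sham, and at 0.96 on day 1. Krt18, its usual partner, was at -0.75 on day 1, with -0.90 by its other probe. On day 7 Krt18 was at 0.17 against sham and at 0.92 against day 1, the latter with 2.04 by its other probe. Nes, the filament of progenitor cells and vessels, was at -1.09 by 1 probe and -1.34 by the other on day 7, and at -0.66 and -0.56 on day 1. The median of the 7 measured genes was 0.02 on day 7 and -0.23 on day 1 against sham.

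**Figure D4:**
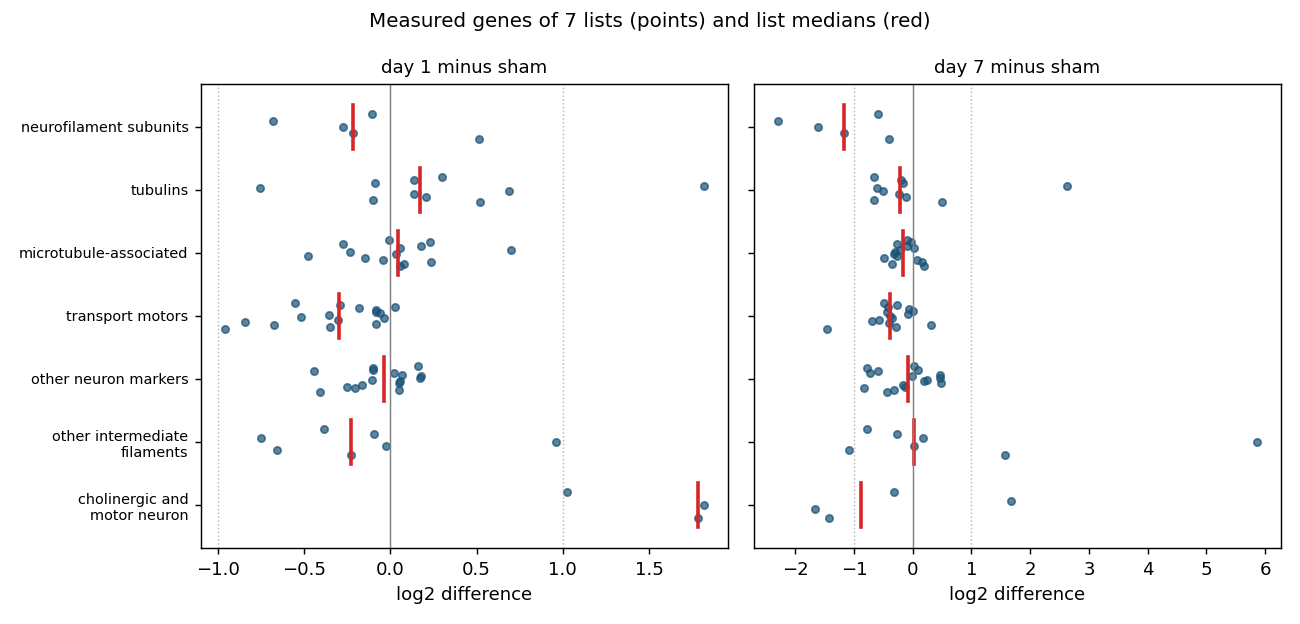
Log2 difference (x axis) of the measured genes of 7 lists (points, 1 per gene; lists run down the y axis) on day 1 minus sham (left) and day 7 minus sham (right), with list medians as red bars and dotted lines at 2-fold; the tubulin and microtubule lists here include Tubb3, Map2 and Mapt. The neurofilament median is -1.17 on day 7, other neuron markers have a median of -0.07, and the cholinergic markers are above 1 on day 1.

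General neuron markers had medians close to sham, -0.04 on day 1 and -0.07 on day 7. Of 20 such genes, 16 were measured at both days against sham, and none was 2-fold higher or lower at either. Of all measured genes, 8.22% passed 2-fold upward and 4.41% downward on day 1, and 11.1% and 5.76% on day 7, so little is read from that count. Syp and Eno2 were not measured on day 1 against sham because their probes were saturated. The summed signal of the neuron markers was 46.9 on day 7, 47.7 on day 1 and 49.6 in sham, in units of the array's 75th percentile. That of the 5 neurofilament and peripherin genes was 11.1 on day 7, 21.1 on day 1 and 23.4 in sham, with the lower day 7 values of 3 of them known when they were chosen. The lowest of the neuron markers on day 7 were Thy1 (-0.83), a surface protein of projection neurons, Chga (-0.78), a protein of secretory granules, and Elavl4 (-0.72), an RNA-binding protein of neurons. On day 1 they were Elavl3 (-0.44), Vsnl1 (-0.40) and Syt1 (-0.25).

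Markers of some other cells also differed between the arrays. Cholinergic and motor neuron markers, of which 4 of 8 had a named probe, did not all take 1 course. Slc18a3 and Slc5a7 lay above sham on day 1 and below it on day 7, as did Prph and Tubb3, with larger differences. Bright genes of other kinds also took this course, among them Hk2 (1.92 on day 1 and -2.37 on day 7), Dffa (1.77 and -3.47) and the olfactory receptor gene Or52z1 (1.74 and -4.47). The share of genes with this course was not counted, so nothing is read from the likeness. Slc18a3, the vesicular acetylcholine transporter, had an intensity of 4787 in sham, 15538 on day 1 and 1513 on day 7, with log2 differences of 1.82 on day 1 and -1.66 on day 7 against sham. Slc5a7, the choline transporter, had 1055 in sham, 3342 on day 1 and 392 on day 7, with differences of 1.78 and -1.43. Isl1, a motor neuron transcription factor, had 340 in sham, 637 on day 1 and 272 on day 7, with differences of 1.02 on day 1 and -0.32 on day 7, the last smaller than those of Prph and Tubb3. Isl2 was higher on day 7 than in sham (1.67) and was not well above background on day 1. The summed signal of Slc18a3, Slc5a7 and Isl1 was 0.384 on day 7, 3.72 on day 1 and 1.09 in sham in the same units. The part of cholinergic neurons in the Prph, Tubb3 and neurofilament values was not tested.

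Oligodendrocyte markers, all 7 with a probe well above background on each array, had a summed signal of 17.2 on day 7, 21.5 on day 1 and 24.7 in sham, and all 7 were below 0 on day 7, with Mbp, a myelin protein, at -1.29. Among all 6321 measured genes, 2963 were below 0 on day 7. Schwann cell markers summed to 3.36 on day 7, 4.19 on day 1 and 4.31 in sham, none past 2-fold. The part of these cells in the neurofilament values was not tested.

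Markers of inhibitory neurons went different ways on day 7 against sham: of 4 measured, 2 were at least 2-fold higher and 1 lower, with a median of 0.64. Of all measured genes, 11.1% passed 2-fold upward and 5.76% downward in that comparison. Slc6a5, the glycine transporter of inhibitory neurons, was at -5.26 on day 7, with an intensity of 202 on day 7 and 7763 in sham, and at -0.12 on day 1. Gad1 and Gad2, the enzymes that make GABA, were at 3.39 (1.59 by the next probe) and 1.30 on day 7 and at 0.71 and 1.16 on day 1, where Gad1 was read by another of its probes. Slc32a1, the vesicular transporter of GABA and glycine, was at -0.02 on day 7 and 0.09 on day 1.

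Of the astrocyte markers 6 of 7 were measured, and they summed to 10.1 on day 7, 9.74 on day 1 and 9.58 in sham. S100b, a calcium-binding protein, was at 1.89 on day 7 and 3.19 on day 1, and Aqp4, the water channel of astrocyte endfeet, at 1.25 on day 7 and 0.05 on day 1. Of the 6 measured genes, 2 were below 0 on day 7 and 3 on day 1. Gfap was among them at both times, at -0.26 and -0.09. The microglial genes Aif1 and Csf1r summed to 1.32 on day 7, 0.656 on day 1 and 1.35 in sham, with Aif1 at -0.15 on day 7 and -1.08 on day 1. Zic1 was at 1.16 on day 1. Of 6 peripheral sensory neuron markers, Scn10a, Scn11a and Trpv1 were not well above background on any array, and the other 3 summed to 1.11 on day 7, 1.25 on day 1 and 0.971 in sham, with P2rx3 at 1.00 on day 7 and 1.38 on day 1 (0.12 and -0.08 by its other probe). Choroid plexus markers, with Kl not well above background on any array, summed to 1.23 on day 7, 0.512 on day 1 and 0.684 in sham. Of these, Sostdc1 was at 1.86 and Folr1 at 1.72 on day 7, and Ttr, which carries thyroid hormone, was at -0.10 on day 7 and -1.20 on day 1. The part of these cells in the neurofilament values was not tested.

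Genes with a course most like that of Nefh were sought among 3167 bright genes measured on all 3 arrays, by the distance between the pairs of log2 differences from sham on day 1 and day 7. The nearest was Gja3, a gap junction protein, at a distance of 0.09, with -0.71 on day 1 and -2.21 on day 7. Next came Tmx2 (0.42), Vwa7 (0.52), Calml3 (0.54) and Gipc2 (0.59). The nearest to the mean of the 3 chains were Cd209f (0.07), Gipc2 (0.19), Carnmt1 (0.25), Cdkn1a (0.28) and Tpi1 (0.29). With 3 arrays a course has only 2 values, so likeness here is a description. Nefl and Nefm are neighbours in the GRCr8 annotation, with 1 annotated gene, the pseudogene Slc25a3-ps1, between them.

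The differences of the neurofilament chains were recomputed under other scalings, filters and probe choices. Each chain, like Prph and Tubb3, has 1 named probe, which is bright, unsaturated and without an outlier flag. The choices on saturated, dim and outlier spots and on the probes of a gene therefore return the reported value. Only the scalings, the unscaled values and the background correction could move it. Over 11 alternatives, day 7 against sham ranged from -2.43 to -2.16 for Nefh, from -1.73 to -1.56 for Nefl and from -1.30 to -1.07 for Nefm, past 2-fold in all 11 for each. Tubb3 stayed above 0 on day 1 (0.57 to 0.79) and below 0 on day 7 (-0.63 to -0.37) against sham in all 11, and Prph likewise (0.40 to 0.55 on day 1 and -0.53 to -0.34 on day 7).

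**Figure D5:**
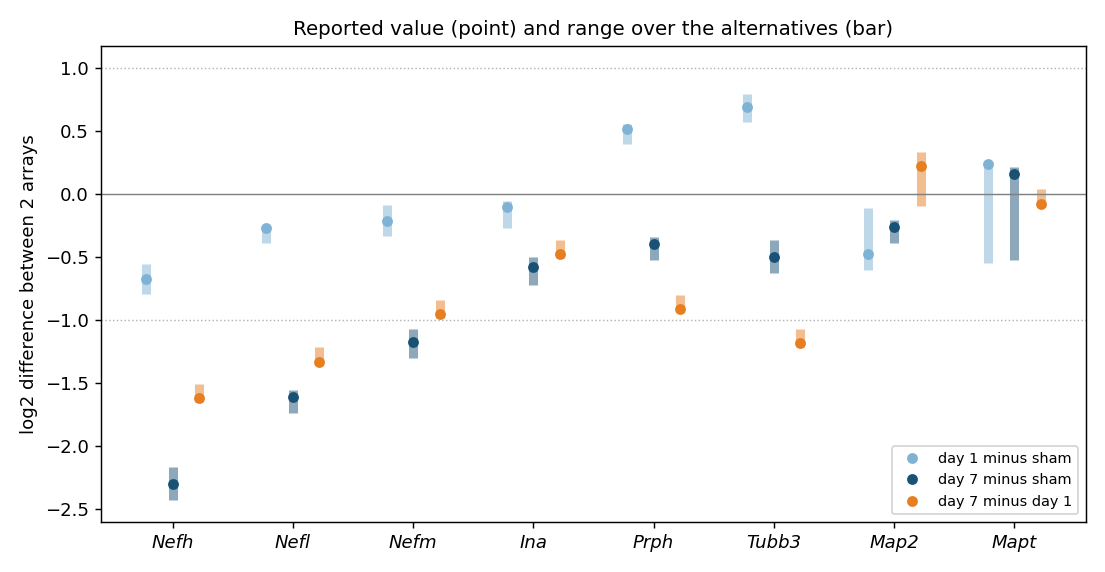
Reported log2 difference of each gene (points; y axis) and its range over 11 or 12 alternatives of processing (bars) for the 3 comparisons, with the genes along the x axis and dotted lines at 2-fold. The bars of Nefh, Nefl and Nefm stay below the lower line for day 7 minus sham, and the bars of Mapt cross 0 for day 1 minus sham and day 7 minus sham, since its probes differ.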

How the data were processed

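RNA of the vestibular nuclei was hybridised to 3 Agilent rat arrays in 1 colour, 1 array per group with tissue of 3 rats, after labelling of 1 µg of RNA with Cy3, per the labels. The deposited scanner files, made with Feature Extraction 10.7.3.1 per the file headers, give the processed intensity of each spot after background subtraction on a linear scale, not scaled between arrays. The authors' series table holds the same intensity for 34687 probes, equal within 0.1% for 99.7% of values. Spots well above background made up 81.3% in sham, 77.3% on day 1 and 76.9% on day 7. Other deposited columns used are flags and the median signal and background intensity; the number of arrays limits precision.

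From these files, each processed intensity was divided by the 75th percentile of its array's 43379 non-control spots and put on a log2 scale. Spots with outlier flags were dropped and the spots of a probe averaged. Probes were named through RefSeq accessions of the GRCr8 table alone, which named 10768 of 41012 probes. Any other probe of a member gene would be missed. A gene was measured by its probe with the highest mean among those that were unsaturated and well above background on both arrays compared. A probe was called so when at least 50% of its spots were. Differences were counted at 2-fold. Python 3.11.15, numpy 2.4.6, pandas 2.3.3, R 4.3.3 and limma 3.58.1 were used, and the counting steps were tested on simulated data.

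Alternatives were 4 other scalings, unscaled values, another background correction, 4 choices on saturated, dim and outlier spots, and the mean or next brightest probe of a gene. The planned normexp correction on mean signals could not be run, since that column is not among those used here; normexp on median signals with an offset of 50 took its place and was chosen after seeing the data. The genes named are the 8 members, up to 3 genes of each list with the largest difference or all past 2-fold where these are 4 or fewer, and the 5 genes nearest in course. Of the marker lists, the genes at least 2-fold from sham are named with some others, and for day 7 against day 1 the text names fewer genes than the rule allows. The members and lists were chosen with earlier results of these data known. Some genes that the rule names are left out of the text.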

Additional observations from a re-analysis of the deposited data

Results flagged for a closer look

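Prph and Tubb3 read in opposite directions from sham at the 2 times. Prph, by probe A_43_P11494, was at -0.40 on day 7 and 0.51 on day 1 against sham on the log2 scale, and day 7 minus day 1 was -0.91. Tubb3, by probe A_42_P509314, was at -0.50 on day 7 and 0.69 on day 1 against sham, and day 7 minus day 1 was -1.18. The day 7 difference of Prph from sham was within the median disagreement of probe pairs (0.41), so its direction on day 7 is uncertain. Each group is 1 array, so the difference between the times was not tested for either gene.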

How the results depend on the processing

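Over 12 alternatives, the number of members at least 2-fold lower stayed at 3 on day 7 against sham, 3 on day 7 against day 1 and 0 on day 1 against sham. The genes in these counts (Nefh, Nefl, Nefm and Tubb3) could move only with the scalings, the unscaled values and the background correction. The median of the 8 members ranged from -0.67 to -0.49 on day 7 against sham, from -0.28 to -0.12 on day 1 against sham and from -0.96 to -0.82 on day 7 against day 1. The values of single genes that moved beyond the median disagreement of probe pairs were those of genes with a second probe. Mapt was at -0.54 on day 1 and -0.52 on day 7 against sham by its other probe and at -0.16 on day 1 by the mean of both; Map2 was at -0.12 on day 1 by its other probe. These values moved because another probe was read or averaged in, and why the probes of a gene differ was not tested. Among the lists, 14 medians of 691 computed moved likewise, in the inhibitory, cholinergic, cerebellar, astrocyte and microglial marker lists; the cholinergic median was 1.40 on day 1 against sham and -2.27 on day 7 against day 1 with no filter on dim probes.

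Counts over all genes depended on the setting. Those of the members could hardly move with the filters, since the members' probes are well above background, unsaturated and without outlier flags. With no filter on dim probes, 1269 genes were at least 2-fold higher and 725 lower on day 7 against sham; with brighter probes alone, 59 were higher and 59 lower of 2587 genes, against 701 higher and 364 lower of 6321; the cause was not tested. The share of higher among all 2-fold differences was 65.8% on day 7 and 65.1% on day 1 against sham; it was 56.3% and 55.3% with quantile normalization, 53.9% and 55.0% with array medians, 54.9% and 55.6% with cyclic loess, and 65.6% and 53.3% unscaled. Unscaled values moved the median of all genes to -0.12 on day 1 against sham and to 0.15 on day 7 against day 1. No paired analysis was possible because each group has 1 array. A difference here is between 2 pools, so animal spread, array and time cannot be told apart. Of the 8 genes, 6 rest on 1 named probe, and a second probe of a gene may read otherwise, as in Mapt. Depth is not a limit for the members, all well above background, but dim genes of the lists were measured less well after surgery: the lowest signal well above background was 122 on day 7, 109.0 on day 1 and 66.9 in sham.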
